A study of Mus musculus with 12 samples.

Results

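The 9 genes described here encode the carriers that move bile acids across the basolateral (blood-facing) membrane of epithelial cells, together with the apical uptake carrier of the ileum: Slc10a1, Slc10a2, Slco1a1, Slco1a4, Slco1b2, Slc51a, Slc51b, Abcc3 and Abcc4. They were picked by gene symbol among 17097 named genes on the arrays. Of 45037 probe sets, 16 carried 1 of these symbols alone, and in each tissue the probe set with the highest mean over that tissue's 6 arrays stood for its gene.

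Abcb11 encodes the bile salt export pump, the main carrier that secretes bile acids across the canalicular membrane of the hepatocyte, and the study asked how its loss in the mother affects the offspring. Liver RNA came from C57BL/6 females aged 1.5 months, 3 Abcb11-/- and 3 WT, with 1 mouse named for each array. Lung RNA came from C57BL/6 offspring at embryonic days 17.5 (E17.5) and 18.5 (E18.5) and from neonates on the day of birth (PN0). Each stage had 1 array for an Abcb11-/- mother mated to a WT male and 1 for a WT mother mated to an Abcb11-/- male. All of these offspring were Abcb11+/-, so the lung groups shared the deletion in 1 copy and differed in the genotype of the mother. The labels name no tissue to which the deletion was confined. How many animals each lung array stands for was not stated.

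Bile acids returning from the intestine in portal blood enter hepatocytes through Slc10a1 (Ntcp), which couples their uptake to sodium, and through the organic anion transporting polypeptides Slco1a1, Slco1a4 and Slco1b2, which do not need sodium. In cholestasis, when bile acids cannot leave through the canaliculus, hepatocytes can send them back to the blood through the heteromeric carrier Slc51a-Slc51b (Ostα-Ostβ) and the ATP-driven pumps Abcc3 (Mrp3) and Abcc4 (Mrp4). Slc10a2 (Asbt) takes up bile acids from the lumen in the ileum, the renal proximal tubule and the bile duct epithelium.

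The values are log2 signals after robust multiarray averaging, so a difference of 1 is a doubling. Array medians were 3.15 to 3.18 in the liver and 3.63 to 3.68 in the lung, and levels were not compared across tissues or between genes. Because no detection call accompanies these values, the probe sets of 89 olfactory, vomeronasal and taste receptors, which are made mainly in sensory cells, gave a bound for signal without expression: the 95th percentile of their mean levels was 3.26 in the liver and 3.35 in the lung. Abcb11 itself averaged 3.10 ± 0.18 in Abcb11-/- livers and 11.05 ± 0.17 in WT livers (SD, n = 3 each), low in every library labelled Abcb11-/-.

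In the liver, the sodium-independent uptake carriers were called lower and part of the efflux carriers were called higher in Abcb11-/- mice. On the probe sets that stood for the genes, Slco1a1 fell to the level of the receptor probe sets, and Slco1b2 and Slco1a4 fell by less than 2-fold. Slc51b rose 16.3-fold, the 4th largest rise, and Abcc4 and the apical carrier Slc10a2 rose 2.72-fold and 5.67-fold. The Slc10a2 call depended on single arrays, as given below. Slc51a and Abcc3 did not pass the test, nor did Slc10a1, which lay just outside the threshold. The Slc10a1 difference of -0.46 was close in size to the -0.44 of the called Slco1a4. By limma with Benjamini-Hochberg adjustment over all genes at 0.05, 3 of the 9 genes were called higher and 3 lower in Abcb11-/- livers, where 4.33% of all genes were called higher and 2.91% lower. With a change of at least 2-fold also required, 3 were higher and 1 lower, against 1.7% and 0.684% of all genes. The median difference of the 9 was -0.04, and that of all genes was 0.00.

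The levels of the 2 genotypes did not overlap for 7 of the 9 genes, 3 higher and 4 lower in Abcb11-/- livers. Over all genes, 13.8% did not overlap and were higher and 12.1% did not overlap and were lower. With 3 mice against 3 mice an exact permutation test of a single gene cannot give a two-sided p below 0.1, so the p-values below come from the limma model, which shares its estimate of spread across all genes. They measure the spread between these mice only.

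**Figure D1:**
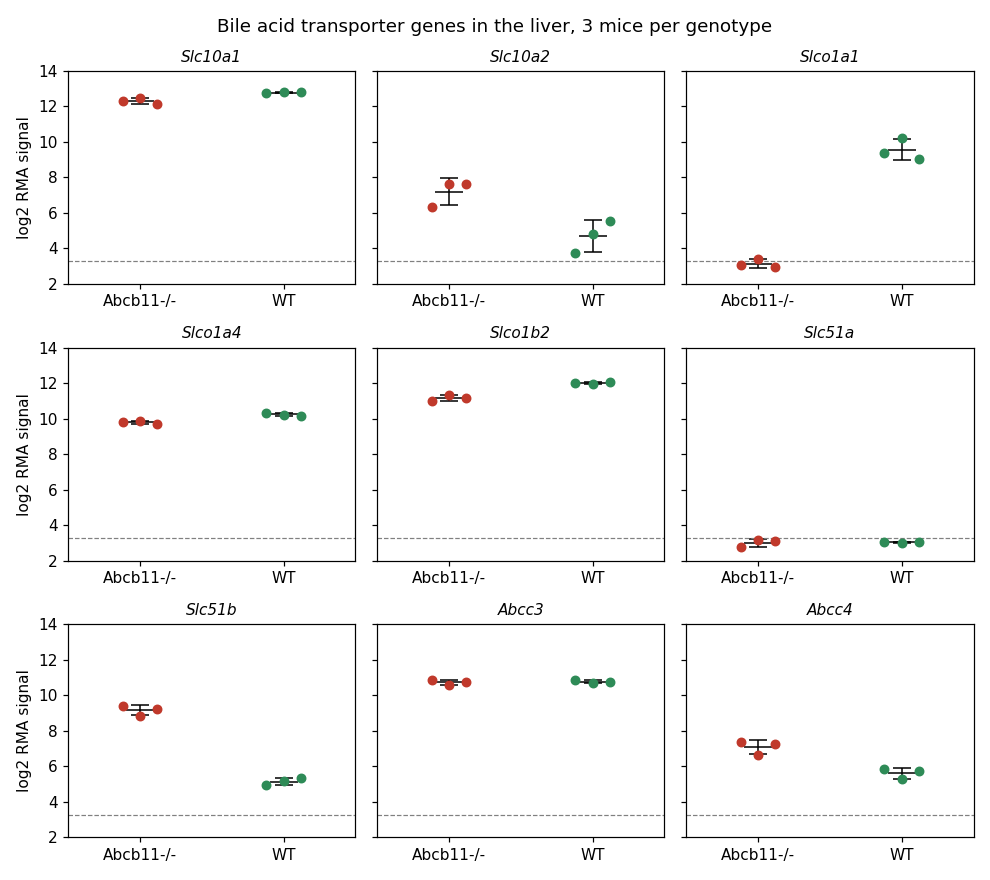
Log2 signal (vertical axis) of each of the 9 genes on the 3 Abcb11-/- liver arrays (left, red) and the 3 WT liver arrays (right, green), with the mean and SD as bars and the receptor bound of 3.26 as a dashed line. Slco1a1 lies around the dashed line in Abcb11-/- livers and at 9.05 to 10.23 in WT livers, Slc51b is at 8.86 to 9.42 in Abcb11-/- livers against 4.93 to 5.32 in WT livers, and Slc51a lies below the line in both.

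**Figure D2:**
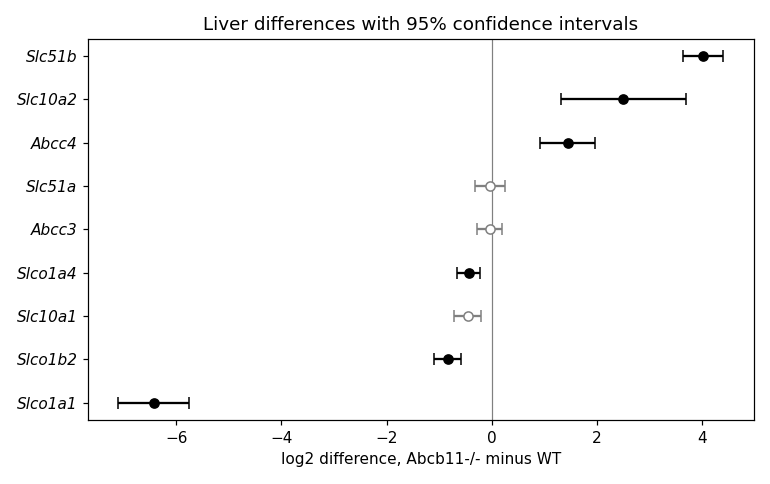
Log2 difference of Abcb11-/- minus WT liver (horizontal axis) for each gene, with 95% confidence intervals as bars, from the highest to the lowest. Filled points passed an adjusted p of 0.05 and open points did not, and the range runs between 4.02 for Slc51b and -6.43 for Slco1a1.

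Promoter sequences are shown for Slc51b and Slco1a1, the genes with the largest rise and fall among the 9, and for Slco1b2, whose promoter held the closest match to an inverted repeat of the kind that the bile acid receptor FXR is known to bind. Each runs over 300 bases of the RefSeq promoter table (build GRCm38.p6), from 250 before to 50 after the start site, written 5′ to 3′ on the strand of the gene, and capitals mark the matches described next.
Slc51b, chr9:65422724-65423023, minus strand: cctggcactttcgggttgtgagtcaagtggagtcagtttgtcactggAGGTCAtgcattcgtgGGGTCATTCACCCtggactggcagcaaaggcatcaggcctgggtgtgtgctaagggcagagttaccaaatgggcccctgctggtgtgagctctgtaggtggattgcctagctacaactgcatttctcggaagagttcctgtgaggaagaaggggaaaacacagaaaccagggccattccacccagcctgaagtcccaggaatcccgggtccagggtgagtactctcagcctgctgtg
Slco1a1, chr6:141946913-141947212, minus strand: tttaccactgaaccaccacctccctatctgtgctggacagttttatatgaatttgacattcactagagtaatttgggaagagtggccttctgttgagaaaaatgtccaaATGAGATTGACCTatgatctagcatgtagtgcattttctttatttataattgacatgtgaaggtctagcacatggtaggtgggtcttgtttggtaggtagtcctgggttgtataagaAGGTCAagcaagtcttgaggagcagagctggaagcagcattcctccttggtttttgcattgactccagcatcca
Slco1b2, chr6:141629268-141629567, plus strand: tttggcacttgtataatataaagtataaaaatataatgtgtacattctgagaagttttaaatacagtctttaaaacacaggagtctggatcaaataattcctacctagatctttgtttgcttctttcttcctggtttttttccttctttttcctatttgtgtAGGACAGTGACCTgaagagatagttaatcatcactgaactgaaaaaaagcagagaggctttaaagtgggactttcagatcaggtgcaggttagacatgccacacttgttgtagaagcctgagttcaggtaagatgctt

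Of the 9 genes, 8 had an entry in that table, with 10 promoters between them. Searched on both strands were the nuclear receptor hexamer AGGTCA, an inverted repeat of it spaced by 1 base (AGGTCANTGACCT, with up to 3 mismatches in its 12 fixed bases) and the core TGACNNNGC of antioxidant response elements. The hexamer forms each arm of the repeat, so both can match the same bases. In Slc51b the repeat match GGGTCATTCACCC, with 3 mismatches, began 187 bases before the start site, and a hexamer began at 203 bases before it. In Slco1b2 the match AGGACAGTGACCT, with 1 mismatch, began 88 bases before the start site. In Slco1a1 the match ATGAGATTGACCT, with 3 mismatches, began 141 bases before the start site, and a further hexamer lay 24 bases before it. A repeat match was present in 5 of the 8 genes (these 3, Slc10a1 and Slc51a), as was a hexamer in the same 5, and the antioxidant core was present in 1, Abcc4, in both of its promoters. Slc10a2 and Slco1a4 held none of the motifs. Of all 32851 promoters in the table, 11.4% held the repeat, 16.3% the hexamer and 12.4% the core. These shares are per promoter, while the counts above are per gene with a match in any of its promoters. Genes with a repeat match included Slc51b, which rose, Slco1a1, which fell, and Slc51a, under the bound in both genotypes. The matches describe the letters in these windows and do not show binding.

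Slco1a1, a sodium-independent carrier of bile acids and other organic anions, had levels of 3.03, 3.40 and 2.93 in Abcb11-/- livers and 9.38, 10.23 and 9.05 in WT livers. In Abcb11-/- livers only 1 of the 3 arrays lay above the receptor bound, while in WT livers all 3 lay far above it. The means were 3.12 ± 0.25 and 9.55 ± 0.61 (SD, n = 3), a difference of -6.43 (SE 0.29, adjusted p = 7.42e-05 by limma). The Abcb11-/- signal of this probe set is at the bound. Its change is therefore given as at least 75.9-fold lower, with each Abcb11-/- array taken as no lower than 3.26. The second probe set of the gene had 4.0, 3.24 and 3.00 in Abcb11-/- livers and 7.77, 8.71 and 7.45 in WT livers, a difference of -4.56. Its fall was smaller and its highest Abcb11-/- array, at 4.0, lay above the bound, so the minimum of 75.9-fold does not extend to it. With the 2 probe sets averaged the difference was -5.50. Both probe sets separated the genotypes by more than the spread among mice of either.

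Slco1b2, the counterpart of the human hepatocyte carriers OATP1B1 and OATP1B3, had 10.97, 11.34 and 11.15 in Abcb11-/- livers and 12, 11.93 and 12.05 in WT livers. It was 1.79-fold lower, with a difference of -0.84 (SE 0.11, 95% confidence interval -1.10 to -0.58, adjusted p = 0.00594 by limma). Of its 5 probe sets, 3 were called lower, with differences of -0.84, -0.50 and -1.48. The other 2 read 2.55 to 2.83 on every liver array, below the receptor bound, and differed by -0.11 and -0.13, so they carried no measurable signal of a gene that the others placed at up to 12.05.

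Slco1a4, which in rodents carries bile acids and cardiac glycosides, had 9.78, 9.89 and 9.71 in Abcb11-/- livers and 10.34, 10.22 and 10.14 in WT livers. The fall was 1.36-fold (difference -0.44, SE 0.10, adjusted p = 0.0346 by limma), and all 3 WT mice were above all 3 Abcb11-/- mice. The call held without Abcb11-/- replicate 2 and was lost without any of the other 5 (adjusted p = 0.0651 without Abcb11-/- replicate 1, 0.113 without Abcb11-/- replicate 3, 0.116 without WT replicate 1, 0.12 without WT replicate 2 and 0.0696 without WT replicate 3). Slco1a1, Slco1a4 and Slco1b2 belong to a cluster of related genes on chromosome 6, and hybridization of a probe set to a neighbour's transcript was not tested.

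Slc10a1, the sodium-dependent carrier that takes up conjugated bile acids from portal blood, had 12.30, 12.49 and 12.12 in Abcb11-/- livers and 12.72, 12.78 and 12.78 in WT livers. The WT mice were nearly level with each other and all above every Abcb11-/- mouse. The difference was -0.46 (SE 0.11, 95% confidence interval -0.71 to -0.20), or 1.37-fold, and its adjusted p of 0.0502 by limma did not pass. Leaving out Abcb11-/- replicate 2, the highest of its group, gave -0.55 and an adjusted p of 0.0218. The other probe set had 11.34, 11.69 and 11.12 in Abcb11-/- livers and 12.11, 11.99 and 11.84 in WT livers, also without overlap. These signals are near the upper end of the array's range, where the highest value on any liver array was 14.16.

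**Figure D3:**
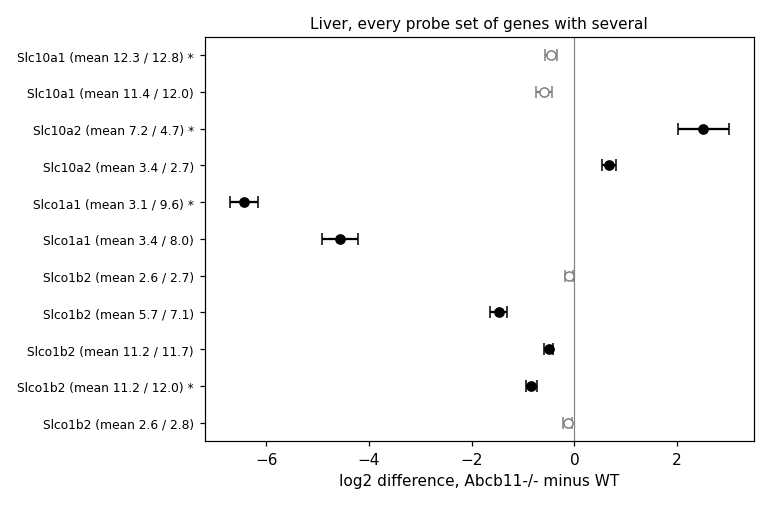
Log2 difference of Abcb11-/- minus WT liver (horizontal axis) with its SE for every probe set of the 4 genes that have several, each labelled with its Abcb11-/- and WT mean level and the one standing for the gene marked by an asterisk. Filled points passed an adjusted p of 0.05. All probe sets of Slco1a1 and of Slc10a1 lie below 0, both of Slc10a2 lie above it, and the 2 dim probe sets of Slco1b2, at -0.11 and -0.13, lie next to 0.

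Slc10a2, the apical sodium-dependent carrier, had 6.30, 7.62 and 7.64 in Abcb11-/- livers and 3.72, 4.78 and 5.55 in WT livers. Every Abcb11-/- mouse was above every WT mouse, with the widest spread among the 9 genes, at means of 7.19 ± 0.77 and 4.68 ± 0.92 (SD, n = 3). The rise was 5.67-fold (difference 2.50, SE 0.51, 95% confidence interval 1.32 to 3.69, adjusted p = 0.0273 by limma). It lost its call without Abcb11-/- replicate 2 (adjusted p = 0.0585), Abcb11-/- replicate 3 (0.0946), WT replicate 1 (0.0734) or WT replicate 2 (0.0986), at differences of 2.02 to 2.95 over the 6 arrays left out in turn. A second, dimmer probe set had 3.07, 3.45 and 3.53 in Abcb11-/- livers and 2.69, 2.70 and 2.64 in WT livers. All 3 WT values and 1 of the Abcb11-/- values were below the receptor bound, so this probe set gives no size for the change.

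Cholangiocytes, the cells of the bile ducts, make Slc10a2. Of 8 measured markers, 3 were called higher and none lower in Abcb11-/- livers: Cd24a, a surface glycoprotein (difference 1.81), the adhesion molecule Epcam (0.67) and the duct transcription factor Sox9, which averaged 4.16 in Abcb11-/- livers and lay under the bound in WT livers. The mean level of the 8 was 4.04 to 4.46 in Abcb11-/- livers and 3.50 to 3.61 in WT livers. The keratin Krt19 averaged 4.01 in Abcb11-/- livers and 3.66 in WT livers (difference 0.35, not called). Cftr, the chloride channel of bile ducts, stayed under the bound in both genotypes (2.40 and 2.41), Krt7, Cldn7 and Muc1 were not called, and the part of duct cells in the rise of Slc10a2 was not tested. Of 7 neutrophil markers 3 were called higher and none lower, with S100a9 at 2.62 and S100a8 at 2.84, and Elane, Mpo, Ltf and Camp were not called. None of 11 hepatocyte markers and none of 11 Kupffer cell and macrophage markers was called in either direction, at median differences of -0.02 and 0.34. The shares of all genes called in this comparison were 4.33% higher and 2.91% lower. In whole liver, fewer cells of a type and less RNA per cell cannot be told apart.

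Among the efflux carriers, the subunits of the heteromeric carrier read differently. Slc51b, the smaller subunit, had 9.42, 8.86 and 9.23 in Abcb11-/- livers and 4.93, 5.19 and 5.32 in WT livers. All 3 Abcb11-/- mice were far above all 3 WT mice, by more than either group varied. Its rise was 16.3-fold (difference 4.02, SE 0.16, 95% confidence interval 3.64 to 4.41, adjusted p = 5.28e-05 by limma). Slc51a, the larger subunit, had 2.74, 3.16 and 3.10 in Abcb11-/- livers and 3.04, 3.01 and 3.02 in WT livers. All of these were below the receptor bound, so its single probe set gave no measurable level in either genotype, and its difference of -0.02 (95% confidence interval -0.31 to 0.26, adjusted p = 0.945 by limma) bears only on signal at that level.

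Abcc4, a pump that exports bile acids together with glutathione, had 7.35, 6.62 and 7.24 in Abcb11-/- livers and 5.87, 5.28 and 5.73 in WT livers. The groups did not overlap, although in each genotype replicate 2 was the lowest. The rise was 2.72-fold (difference 1.44, SE 0.22, 95% confidence interval 0.92 to 1.96, adjusted p = 0.0103 by limma), and it was called without any 1 of the 6 arrays. Abcc3, the pump for glucuronides and bile acids on the same membrane, had 10.89, 10.60 and 10.74 in Abcb11-/- livers and 10.87, 10.72 and 10.76 in WT livers. The WT mice lay inside the range of the Abcb11-/- mice, and the difference was -0.04 (95% confidence interval -0.28 to 0.20, adjusted p = 0.881 by limma), so a change above 1.5-fold lay outside the interval in both directions.

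**Figure D4:**
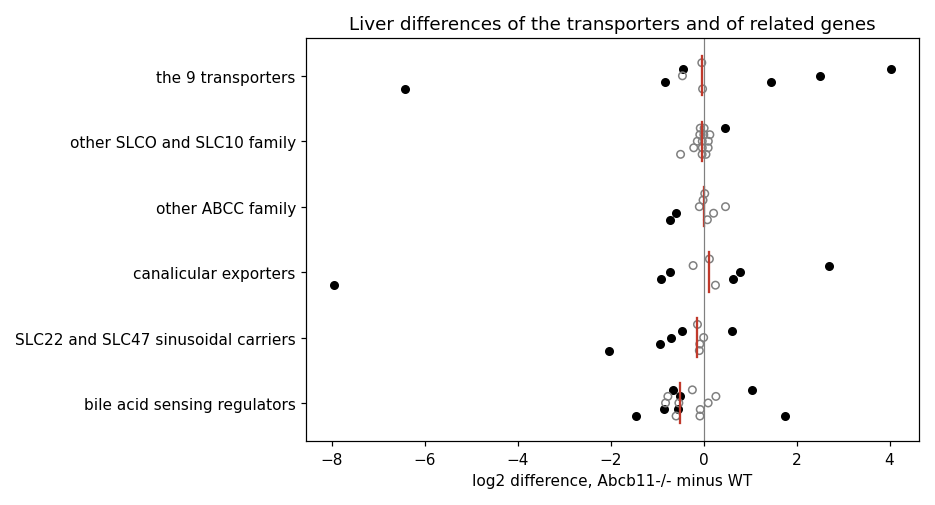
Log2 difference of Abcb11-/- minus WT liver (horizontal axis) for the 9 transporters (top row) and 5 lists of related genes, 1 point per gene, filled where the adjusted p passed 0.05, with the median of each list as a red line. Of the transporters 6 of 9 points are filled. Among the related genes, 1 of 15 other SLCO and SLC10 genes and 2 of 8 other ABCC genes are filled. So are 6 of 9 canalicular exporters, which include the deleted Abcb11, 5 of 9 SLC22 and SLC47 carriers and 7 of 16 regulators.

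Relatives of the 9 genes are read here against the 7.24% of all genes called in either direction. Of 15 other measured SLCO and SLC10 genes, 1 was called higher and none lower, a share near that of all genes, at a median difference of -0.03. The called gene was Slc10a3, an orphan member of the SLC10 family (difference 0.45, SE 0.09, adjusted p = 0.029 by limma). Slco2b1, a carrier of steroid sulphates, averaged 9.76 in Abcb11-/- livers and 10.26 in WT livers (difference -0.50, adjusted p = 0.0782), and the prostaglandin carrier Slco2a1 averaged 8.77 and 8.85. Slco4a1 was at 3.44 and 3.47, and Slco4c1 was under the bound at 2.58 in both. Of 8 other ABCC genes, 2 were called lower and none higher: Abcc2 (Mrp2), the canalicular pump for bilirubin conjugates (difference -0.72), and Abcc6, a basolateral ATP release factor (-0.60).

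At the canalicular membrane, 3 of 9 exporter genes were called higher and 3 lower, the deleted Abcb11 being among the lower. Apart from Abcb11, the fit called the multidrug pump Abcb1a (difference 2.69), the phospholipid flippase Abcb4 (0.78) and the sterol transporter subunit Abcg8 (-0.93) with the smallest p. Of 9 organic ion carriers of the SLC22 and SLC47 families, 1 was called higher and 4 lower, among them Slc22a27 (-2.04), Slc22a23 (-0.71), the carnitine carrier Slc22a5 (-0.46) and Slc22a18 (0.62). Of 16 regulators of bile acid transport, 2 were called higher and 5 lower. Nr1i2, the xenobiotic receptor PXR, rose (1.04), while Nr1h4, the bile acid receptor FXR (-0.85), the fatty acid receptor Ppara (-1.45) and Nr5a2, a receptor that drives bile acid synthesis genes (-0.50), fell. Nr0b2, the repressor SHP that FXR induces, named here after its value was seen, was called higher at 1.76. Of 10 target genes of such receptors, 2 were called higher and 3 lower. Cyp8b1, which makes cholic acid, fell by 4.35 and the aryl hydrocarbon receptor target Cyp1a2 fell by 1.65, whereas Gstm3, a glutathione transferase (1.61), and the quinone reductase Nqo1 (0.82) rose.

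Genes whose pattern over the 6 liver arrays lay nearest to Slc51b and Slco1a1 were found by Euclidean distance of log2 values less the WT mean, among 6368 other genes with a mean level of at least 6. Nearest to Slc51b were Smoc2, a matricellular protein (distance 1.03, difference 3.81), Mfge8, a bridging protein for engulfed cells (distance 1.74, difference 3.16), and the fatty acid hydroxylase Cyp4a12a (distance 1.75, difference 3.26). Nearest to Slco1a1 were the deleted Abcb11, Cyp8b1 and the deiodinase Dio1. No distance is given for them, since Slco1a1 and Abcb11 were under the receptor bound in Abcb11-/- livers and their distance reflects the WT levels. Cyp8b1 and Dio1 fell by less than Slco1a1, at differences of -4.35 and -3.65 against -6.43, so nearest does not mean a close match here. The filter was on the mean of both genotypes, and Abcb11, Cyp8b1, Smoc2 and Cyp4a12a averaged under 6 in 1 of the genotypes.

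In the lung, 2 of the 9 genes, Abcc3 and Abcc4, exceeded the receptor bound of 3.35 on all 6 arrays, 4 did so on some (Slc10a1, Slco1a1, Slco1a4 and Slco1b2), and 3 on none (Slc10a2, Slc51a and Slc51b). The 3 genes that rose in the Abcb11-/- liver were thus represented in the lung by Abcc4 alone. With 1 array per stage and mother there is no test at a stage, so a gene was counted there when it was at least 1.5-fold apart with its higher array above the bound.

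Abcc4 had levels of 5.16 (Abcb11-/- mother) and 5.24 (WT mother) in E17.5 lungs, 5.99 and 5.90 in E18.5 lungs, and 5.70 and 5.28 in PN0 lungs, in the same order of mothers. It was highest at E18.5 with either mother. E18.5 exceeded E17.5 by 0.74 (SE 0.17, unadjusted p = 0.00447, adjusted p = 0.176 by limma), and PN0 minus E18.5 was -0.45 (SE 0.17, adjusted p = 0.37). Abcc3 had 5.33 (Abcb11-/- mother) and 5.07 (WT mother) in E17.5 lungs, 5.35 and 5.56 in E18.5 lungs, and 5.82 and 6.12 in PN0 lungs. It was highest at PN0 with either mother, and PN0 minus E18.5 was 0.52 (SE 0.18, unadjusted p = 0.0292, adjusted p = 0.358 by limma). Neither gene passed the test for stage. Over all genes 9 were called higher (0.0526%) and 1 lower (0.00585%) at E18.5 against E17.5, and none in either direction at PN0 against E18.5, where 2098 genes had an unadjusted p under 0.05.

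**Figure D5:**
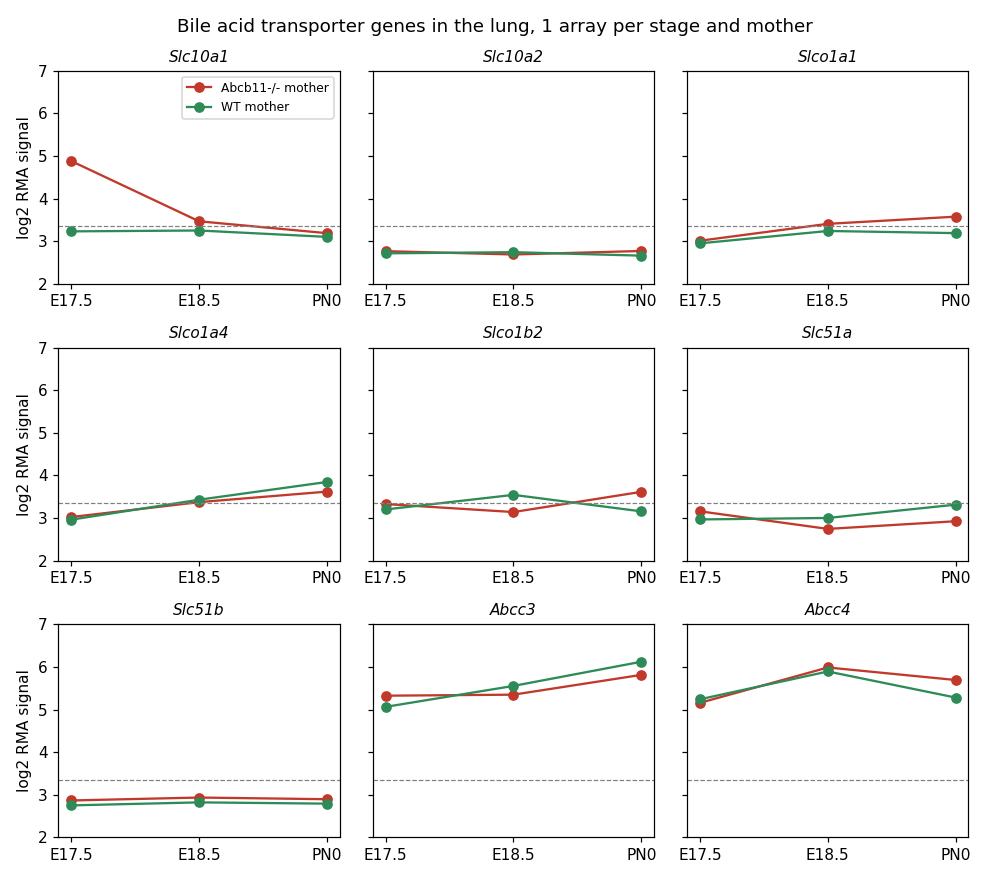
Log2 signal (vertical axis) of each gene in E17.5, E18.5 and PN0 lungs (horizontal axis), with 1 array for an Abcb11-/- mother (red) and 1 for a WT mother (green) at each stage, and the receptor bound of 3.35 as a dashed line. Abcc3 and Abcc4 lie above the line throughout, and the widest gap between mothers is that of Slc10a1 at E17.5, at 4.88 and 3.23.

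Slco1a4 read under the bound in E17.5 lungs and above it in E18.5 and PN0 lungs with either mother. It had 3.02 (Abcb11-/- mother) and 2.96 (WT mother) in E17.5 lungs, 3.37 and 3.43 in E18.5 lungs, and 3.62 and 3.85 in PN0 lungs. All of these values were below the mean level of the brightest receptor probe set, 4.08. The Slco1a4 stage differences of 0.41 and 0.33 did not pass (adjusted p = 0.331 and 0.423 by limma). Slco1a1 ran between 3.01 and 3.57 with an Abcb11-/- mother and between 2.95 and 3.24 with a WT mother. It was above the bound on 2 arrays, at 3.41 (E18.5) and 3.57 (PN0) with an Abcb11-/- mother. The other Slco1a1 probe set read 2.69 to 3.06 over the lung arrays, under the bound with either mother. Slco1b2, at 3.14 to 3.61 with an Abcb11-/- mother and 3.15 to 3.54 with a WT mother, had no order with stage or mother. Its brightest probe set in the lung was one that read 2.55 to 2.83 in the liver, where other probe sets of the gene were bright, and whether it reads the Slco1b2 transcript was not tested. Slc10a2 stayed at 2.69 to 2.77 with an Abcb11-/- mother and 2.66 to 2.74 with a WT mother, Slc51a at 2.74 to 3.16 and 2.97 to 3.31, and Slc51b at 2.87 to 2.94 and 2.75 to 2.82.

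Among the 9 genes, 1 met the size rule for the mother at any stage. In E17.5 lungs Slc10a1 had 4.88 (Abcb11-/- mother) and 3.23 (WT mother), a difference of at least 1.53 with the WT-mother value, which was under the bound, set to it. By the size rule 4.69% of 12487 genes above the bound were higher and 4.78% lower at this stage. The other Slc10a1 probe set read 4.63 and 2.78 on these arrays, the WT-mother value again under the bound. In E18.5 lungs the first had 3.47 and 3.25, and in PN0 lungs 3.19 and 3.10. The other probe set ran the opposite way there, at 2.93 and 3.26 in E18.5 lungs and 3.08 and 3.19 in PN0 lungs. The same E17.5 array carried other transcripts of the hepatocyte, where Slc10a1 is made. Of 11 hepatocyte markers 10 were at least 1.5-fold higher there, at a median difference of 5.31 (13.01 with an Abcb11-/- mother and 9.05 with a WT mother for the plasma protein Alb, 10.68 and 5.33 for Apoa1, the main protein of high-density lipoprotein), and 10 of 12 skeletal muscle markers were higher, at a median of 4.24 (4.17 with values under the bound set to it). The hepatocyte medians were 0.05 at E18.5 and 0.24 at PN0. How much of the Slc10a1 signal came with those transcripts was not tested.

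At E18.5, 2.72% of 12713 genes were higher and 1.64% lower with an Abcb11-/- mother, and at PN0 5.53% of 12768 were higher and 3.82% lower. None of the 9 transporters was among them. The largest differences at these stages were 0.46 for Slco1b2 and 0.41 for Abcc4 at PN0. In a limma model with stage and mother as terms, which leaves 2 residual degrees of freedom, no gene of 17097 was called for the mother (0% higher and 0% lower, 867 at an unadjusted p under 0.05), and none of the 9 had an unadjusted p under 0.05. Their adjusted p-values were 0.926 to 0.984. In this fit the intervals of the difference between mothers were -0.19 to 0.47 for Abcc4 and -0.45 to 0.28 for Abcc3. A 1.5-fold average difference over the 3 stages lay outside both intervals in either direction. For Slc10a1 the interval was -0.12 to 1.42. The Abcc3 average joins opposite signs, at 0.26 in E17.5, -0.21 in E18.5 and -0.31 in PN0 lungs. Without the E17.5 arrays the differences between mothers were larger, at -0.26 for Abcc3 and 0.25 for Abcc4. No interval was computed for that fit, so the limit of 1.5-fold holds only with the E17.5 arrays included.

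Of the related carriers, Slco4a1 and Slco4c1 were measured in the lung by the study with another assay, which was not analysed here. On the arrays Slco4c1 had 6.68 (Abcb11-/- mother) and 5.78 (WT mother) in E17.5 lungs, 6.56 and 6.75 in E18.5 lungs, and 6.47 and 6.15 in PN0 lungs. Slco4a1 lay near the bound, between 3.04 and 3.32 with an Abcb11-/- mother and between 3.10 and 3.57 with a WT mother. Of the 15 other SLCO and SLC10 genes, 2 met the size rule in E17.5 lungs, both higher with an Abcb11-/- mother, and none did in E18.5 or PN0 lungs. They were Slco4c1 (0.89) and, named after its value was seen, Slco3a1 (0.59). The higher array was the one that carried the hepatocyte and muscle transcripts, and any part of those in these differences was not tested. In the liver Slco4c1 was under the bound in both genotypes, and Slco3a1 averaged 3.93 in Abcb11-/- and 4.14 in WT livers.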

How the data were processed

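RNA was measured on 12 Affymetrix arrays (the HT MG430 PM plate format), 1 per sample, and the authors summarized the signals per probe set by robust multiarray averaging. They deposited log2 values, and Partek 6.5 stands in the submitters' processing notes. The tissues appear to have been normalized apart, so each was analysed alone. All columns of values were used (0 left out). The arrays have no read depth, and their number limits the precision.

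Of 45037 probe sets, 28898 had 1 gene name (28689 matched by gene number to RefSeq), 551 several and 15588 none. The brightest probe set per tissue stood for each gene. Liver arrays were tested by genotype, and lung arrays with stage and mother as terms, by moderated linear models (lmFit, then eBayes) of limma 3.58.1 under R 4.3.3 at a Benjamini-Hochberg adjusted p of 0.05. The script was tested on simulated data. Python 3.11.15 and matplotlib 3.10.9 drew the plots. The genes and lists were chosen with earlier results of these data known. Besides the 9 genes, named genes are up to 4 of each list (smallest p among those called, otherwise brightest), Abcb11, Slco4a1, Slco4c1 and 3 nearest genes for the largest rise and fall. Related carriers, regulators and cell types made up 22 lists. Alternatives were averaged probe sets, each other probe set, a minimum mean level of 6, quantile normalization, a block for the replicate number, median centring, the methods' t-test, omission of each array or stage in turn, a robust prior with a trend, a 2-fold rule and a bound at the brightest receptor.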

Additional observations from a re-analysis of the deposited data

How the results depend on the processing

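Slco1a1 and Slc51b were called under every liver alternative, and the direction of the 9 liver differences was kept in 128 of 131 values. The exceptions were the uncalled Slc51a (0.11 without Abcb11-/- replicate 1) and Abcc3 (0.032 without Abcb11-/- replicate 2 and 0.0033 without WT replicate 1). Slc10a1 passed the threshold with averaged probe sets (-0.53, adjusted p = 0.0465), a minimum level of 6 (-0.46, 0.0294), median centring (-0.50, 0.0375), a trended and robust prior (-0.46, 0.0124) and the methods' t-test at its own threshold (-0.46). Slc10a2 kept its call at a smaller difference with averaged probe sets (1.59, adjusted p = 0.0223 by limma). It lost its call with a trended and robust prior (2.50, adjusted p = 0.085). After Benjamini-Hochberg adjustment, the methods' t-test no longer called Slc10a2 (2.50), Slco1a4 (-0.44), Slco1b2 (-0.84) or Abcc4 (1.44), which left 1 of the 9 genes higher and 1 lower, and called 26 genes higher and 23 lower in all, against 1685 and 1444 at its own threshold. Slco1b2 was at -0.11 and -0.13 on its 2 dim probe sets. Leaving out 1 liver array gave -0.55 to -0.365 for Slc10a1, 2.02 to 2.95 for Slc10a2, -6.69 to -6.10 for Slco1a1, -0.49 to -0.39 for Slco1a4, -0.93 to -0.75 for Slco1b2, -0.10 to 0.11 for Slc51a, 3.90 to 4.18 for Slc51b, -0.11 to 0.03 for Abcc3 and 1.27 to 1.67 for Abcc4.

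Genes called in the liver numbered 740 higher and 498 lower. Without 1 array they ranged between 315 and 888 higher and between 177 and 621 lower, with 315 and 177 without WT replicate 2, 358 and 206 without WT replicate 3, 374 and 193 without WT replicate 1 and 446 and 271 without Abcb11-/- replicate 3. Same-numbered livers did not deviate together over all genes (correlations -0.045, -0.041 and -0.135). With 3 mice per genotype this cannot settle whether the numbers pair mice. The fit with the replicate number as a block called 429 and 242 genes. In it Slco1a4, at -0.44, had an adjusted p of 0.0882 by limma and lost its call. Slc10a2 (adjusted p = 0.00625) and Abcc4 (0.00634) kept theirs at lower values than in the main fit.

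No test of the 9 genes in the lung passed under any alternative run (144 values, lowest adjusted p = 0.159). The direction of small differences turned with averaged probe sets for PN0 minus E18.5 in Slc10a2 (-0.010) and Slco1a1 (-0.040) and for E18.5 minus E17.5 in Slc10a2 (0.10) and Slco1b2 (-0.0051). It also turned for Slc10a2 with quantile normalization (-0.011, PN0 minus E18.5) and median centring (0.023, E18.5 minus E17.5). Without the PN0 arrays the difference between mothers turned for Slc10a2 (-0.0017), Slco1a4 (0.0024), Slco1b2 (-0.14) and Abcc3 (0.028). Differences at a stage moved with averaged probe sets in Slco1a1 (-0.15 at E17.5, -0.0082 at E18.5, 0.22 at PN0), Slc10a2 (0.014 at E18.5, -0.014 at PN0) and Slco1b2 (0.13 at PN0), and in Slc51b with median centring (0.13, 0.069 and 0.069 in stage order) and quantile normalization (0.12 at E18.5). Averaged probe sets also turned the sign of the difference between mothers for Slc10a1 at E18.5 (-0.058) and PN0 (-0.014). With the bound at the brightest receptor, 3 of the 9 genes were above it in the lung, against 6.

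Counts over all genes in the lung depended on the fit. For PN0 against E18.5, 12 genes were called higher and 2 lower with averaged probe sets, 13 and 5 with a minimum level of 6, 62 and 25 with a trended and robust prior and 24 and 11 without the E17.5 arrays. For E18.5 against E17.5, none was called lower with averaged probe sets (0), 36 were higher and 9 lower with a minimum level of 6, 130 and 67 with a trended and robust prior, and 0 in either direction with quantile normalization or median centring. For the mother, 1 gene was higher with a minimum level of 6 and 1 with a trended and robust prior. The cause of the changes in this and the other comparisons was not tested.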
